A study of Homo sapiens with 8 samples.

Results

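The 10 genes described here encode alpha and beta tubulin, the 2 kinds of subunit that build microtubules. They are 3 alpha genes (TUBA1A, TUBA1B and TUBA1C) and 7 beta genes (TUBB, TUBB2A, TUBB2B, TUBB3, TUBB4A, TUBB4B and TUBB6), taken from a fixed list of names out of the 62826 genes in the gene tables. Each name matched 1 Ensembl identifier in all 8 libraries. RNA was sequenced from LUHMES cells, a conditionally immortalised line from human midbrain that stops dividing and becomes neuron-like when tetracycline shuts off its oncogene. The line is labelled wild type, so every library comes from 1 genetic background. All cells were differentiated for 6 days with dbcAMP (1 mM), GDNF (2 ng/mL) and tetracycline (1 µg/mL). The 4 treated libraries then had 8 h of antimycin A (25 µM), which blocks respiratory complex III, together with oligomycin (10 µM), which blocks the mitochondrial ATP synthase. The 4 vehicle libraries received DMSO. Replicates carry the differentiation numbers 2 to 5 in both groups, and the series text calls them independent batches. It also mentions 4 technical replicates per batch, and 1 library stands for each batch here. In the sample titles, technical replicates are mentioned for the treated libraries only.

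Microtubules are polymers of alpha-beta tubulin dimers, and in neurons they fill the axon and dendrites and carry transport. Vertebrates have several genes for each subunit, and their proteins, called isotypes, differ mostly in the acidic tail at the carboxyl end, where many modifying enzymes act. Cells also adjust tubulin mRNA to the amount of unpolymerised tubulin dimer: the factor TTC5 binds the first residues of a tubulin chain as it leaves the ribosome and, through SCAPER and the CCR4-NOT deadenylase, brings about decay of the mRNA being translated.

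The stretch that this control reads is short, and its coding sequence is shared by the alpha genes and nearly shared by the beta genes. The lines below show the first 24 coding bases of 6 genes that between them hold every version of the first 12, in GENCODE 29 transcripts on hg38, from the start codon on, with the first 12 bases (4 codons) in capitals.
TUBA1A: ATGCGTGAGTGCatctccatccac
TUBB3: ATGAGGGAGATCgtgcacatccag
TUBB: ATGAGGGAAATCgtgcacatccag
TUBB2A: ATGCGCGAGATCgtgcacatccag
TUBB2B: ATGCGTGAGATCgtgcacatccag
TUBB4A: ATGCGGGAGATCgtgcacctgcag
The 3 alpha genes have the same first 12 bases, with TUBA1C read from its transcript TUBA1C-201. Among the beta genes, with positions counted from 1 at the A of the start codon, TUBB6 has the same first 12 bases as TUBB3. TUBB and TUBB4B differ from TUBB3 there by G9A. TUBB4A differs by A4C, TUBB2A by A4C and G6C, and TUBB2B by A4C and G6T. These changes are synonymous, so the beta genes encode the same first 4 residues.

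The other end of the coding sequence differs widely between some beta genes and hardly between others. The ends of the alpha genes were not compared. The last 60 coding bases are shown for 4 beta genes, with the stop codon in capitals.
TUBB2A: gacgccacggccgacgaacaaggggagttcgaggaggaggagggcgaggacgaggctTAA
TUBB2B: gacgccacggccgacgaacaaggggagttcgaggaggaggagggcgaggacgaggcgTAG
TUBB3: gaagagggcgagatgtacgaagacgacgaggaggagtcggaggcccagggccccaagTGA
TUBB6: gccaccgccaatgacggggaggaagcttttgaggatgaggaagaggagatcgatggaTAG
TUBB2A and TUBB2B differ at 2 of the 60, and TUBB4A and TUBB4B at 10. Over the whole coding sequence TUBA1A and TUBA1B are 97.2% identical, with a longest shared run of 221 bases. TUBB2A and TUBB2B are 98.1% identical, with a shared run of 725 bases. TUBA1C is 96.8% identical to TUBA1B, with a shared run of 326 bases, and 95.9% identical to TUBA1A, with a run of 164 bases. Reads from those runs cannot be assigned to 1 gene by sequence alone. The division of reads among the 3 alpha genes, and between TUBB2A and TUBB2B, is therefore uncertain. Other beta genes also share runs. TUBB3 shares 185 bases with both TUBB2A and TUBB2B, and 140 bases with TUBB4B. TUBB2A and TUBB2B each share 143 bases with TUBB4B and 98 bases with TUBB4A. The same limit holds for reads from these runs. Alpha and beta genes are 52.2 to 53.6% identical and share no run longer than 14 bases. The TUBA1C sequence compared is that of TUBA1C-201, which had a mean of only 0.38 TPM over the 8 libraries. Coding sequences outside 1300 to 1400 bases, or without an annotated start and stop codon, were not used.

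Libraries held 93717712 to 110020746 estimated reads, and the 10 genes took 0.755 to 0.848% of them in treated and 1.10 to 1.32% in vehicle libraries. Vehicle replicate 2 stood apart from the other libraries. Genes of the mitochondrial genome took 30.2% of its TPM (a level corrected for transcript length and scaled to the same total in each library), against 10.3 to 13.8% in the other 7, which lowers the TPM of every nuclear gene in it. The fold changes of the 10 genes, their summed TPM and their shares of it are therefore given with and without that library. Some other values are given with all libraries only. The part of vehicle replicate 2 in the results was not otherwise tested. Of 13 neuron markers, none fell below 1 TPM in all 8 libraries. Among 10 dopaminergic markers, the dopamine transporter gene SLC6A3 stood at 296 to 414 TPM and tyrosine hydroxylase (TH) at 7.32 to 28.2 TPM. DDC, SLC18A2, PITX3, LMX1B and FOXA2 were below 1 TPM in every library, so the labelled dopaminergic type rests on part of its marker set. No microglia marker passed the filter on low counts, and the astrocyte markers GFAP, AQP4 and S100B did not pass it either.

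In length-corrected level the 10 genes ran in the same order in 8 of 8 libraries: TUBA1A, TUBB3, TUBB, TUBB2B, TUBA1B, TUBB2A, TUBB4B, TUBA1C, TUBB4A and TUBB6. The order spans the most abundant mRNAs of these cells to ordinary ones. By mean TPM in vehicle cells TUBA1A ranked 14th of all genes and TUBB6 ranked 5122nd, and in treated cells 15th and 7737th. TUBB3, the isotype used as a marker of neurons, went from rank 27 to rank 56, and TUBB, the widely expressed beta gene, from rank 39 to rank 88. No neighbours in the order overlapped among the treated libraries. Among vehicle libraries TUBB3 overlapped TUBB and TUBB overlapped TUBB2B, and neither pair overlapped without vehicle replicate 2.

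**Figure D1:**
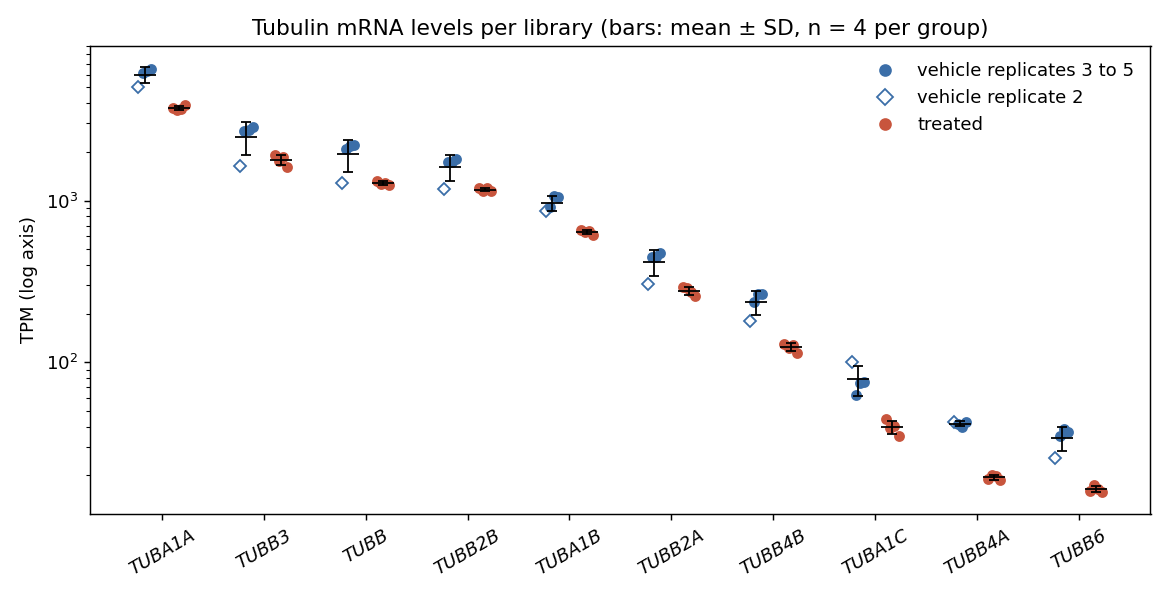
TPM of the 10 tubulin genes by library, on a log axis, with bars for the mean ± SD (n = 4) of treated and vehicle cells; the open diamond is vehicle replicate 2. Treated libraries lie below the vehicle libraries for 7 genes, while TUBB, TUBB2B and TUBB3 overlap through vehicle replicate 2 alone.

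All 10 tubulin genes were lower in treated than in vehicle cells (edgeR's quasi-likelihood test with Benjamini-Hochberg adjustment over all 19785 genes tested, threshold 0.05). Over all genes 30.2% were called lower and 27.7% higher. The 10 log2 fold changes, treated over vehicle, ran from -0.38 to -1.09 with a median of -0.60, and the median of all genes tested was -0.02. Without vehicle replicate 2 all 10 were again lower, with a median of -0.61, where 32.4% of all genes were lower. Of all genes tested, 5% lay below -1.30, and of the protein-coding ones 5% lay below -1.04. With all libraries, TUBB4A at -1.06 and TUBB6 at -1.09 lay below the second value, and the other tubulin genes lay above it.

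On CPM, read counts scaled by the TMM-adjusted library size, every treated library was below every vehicle library for 9 of the 10 genes, against 28.2% of all genes tested. The exception was TUBB3. Leaving out vehicle replicate 2, this held for 10 of 10, against 33.8% of all genes. In the authors' deposited table of coding genes, the same 10 had log2 fold changes of -0.39 to -1.08, each with a false discovery rate under 0.05, and 29.6% of the genes in the table were lower at that rate. With library totals in place of TMM the median of all genes moved to -0.12, and the 10 genes lay between -0.48 and -1.19. In bulk RNA, fewer cells of a type and less RNA per cell cannot be told apart.

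**Figure D2:**
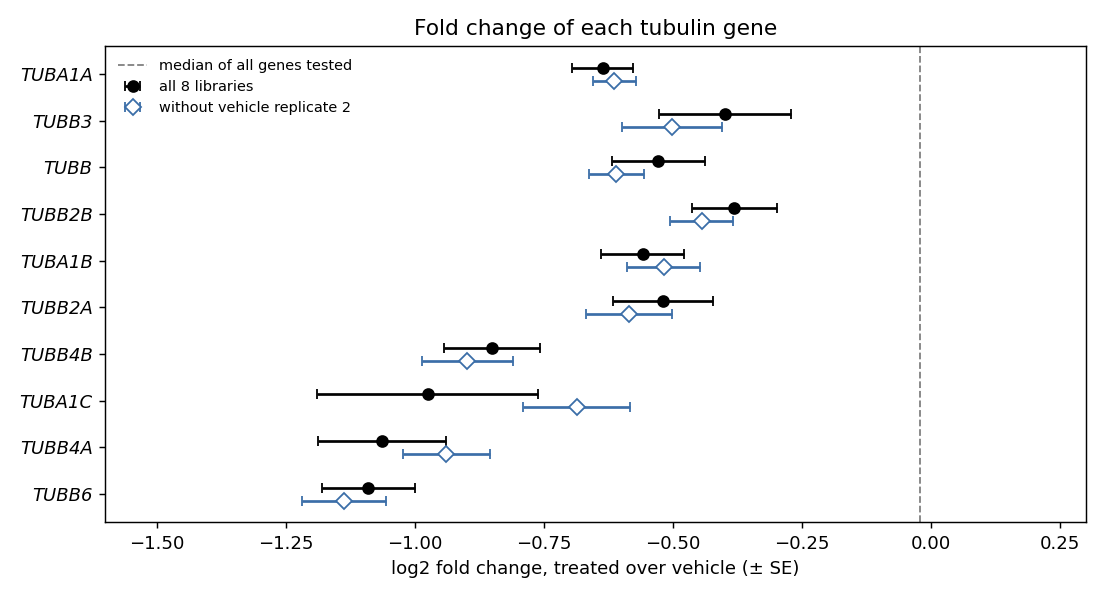
Log2 fold change, treated over vehicle, of the 10 tubulin genes with its standard error, with all 8 libraries and without vehicle replicate 2; the dashed line is the median of all genes tested. Every gene lies left of that line in both fits, from TUBB2B at -0.38 to TUBB6 at -1.09 with all libraries.

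Of the alpha genes, TUBA1A (chr12:49184796-49189324, minus strand), the main alpha gene of developing neurons, gave the highest level. In treated replicates 2 to 5 it stood at 3710, 3647, 3693 and 3907 TPM, and in vehicle replicates 2 to 5 at 5035, 6148, 6295 and 6529 TPM. The groups did not overlap, and the treated mean was 62.3% of the vehicle mean (59.1% without vehicle replicate 2). Its log2 fold change was -0.64 ± 0.06 (SE, edgeR's quasi-likelihood test, adjusted p = 1.1e-05), and -0.61 without that library. TUBA1B (chr12:49127782-49131397, minus strand), an alpha gene of most cell types, stood at 613 to 656 TPM in treated and 857 to 1059 TPM in vehicle libraries. It fell by 0.56 ± 0.08 (SE, edgeR, adjusted p = 1.9e-04) on the log2 scale. Leaving out vehicle replicate 2 gave -0.52. An antisense gene, TUBA1B-AS1, overlaps it and stood at 3.98 to 9.06 TPM in treated and 6.91 to 11.2 TPM in vehicle libraries. The sources used here do not say whether reads were counted by strand.

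TUBA1C (chr12:49188736-49274603, plus strand) was the lowest of the alpha genes and the least even. In treated replicates 2 to 5 it measured 44.4, 39.5, 40.3 and 35.3 TPM, and in vehicle replicates 2 to 5 it measured 101, 63.0, 74.4 and 75.1 TPM. The groups did not overlap, and vehicle replicate 2 was the highest library. The log2 fold change was -0.98 ± 0.21 (SE, edgeR, adjusted p = 0.0029) with all libraries and -0.69 ± 0.10 without vehicle replicate 2. As annotated, the gene overlaps TUBA1A by 589 bases on the opposite strand.

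TUBB3 (chr16:89921392-89938761, plus strand) had the weakest evidence of the 10. Its TPM in treated replicates 2 to 5 was 1910, 1759, 1848 and 1622, and in vehicle replicates 2 to 5 it was 1643, 2678, 2743 and 2860. The vehicle group was high apart from replicate 2, which lay among the treated libraries. The same library overlapped on CPM, at 1487 against 1163 to 1611 in the treated libraries. The log2 fold change was -0.40 ± 0.13 (SE, edgeR's quasi-likelihood test, adjusted p = 0.021), and -0.50 (adjusted p = 0.0014) without vehicle replicate 2. Leaving out treated replicate 5, vehicle replicate 4 or vehicle replicate 5 ended the call (edgeR adjusted p = 0.051, 0.057 and 0.054).

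TUBB (chr6:30720201-30725426, plus strand) stood at 1321, 1262, 1292 and 1238 TPM in treated replicates 2 to 5, and at 1288, 2081, 2171 and 2206 TPM in vehicle replicates 2 to 5. In TPM vehicle replicate 2 lay inside the treated range, and on CPM it lay above it, at 2073 against 1617 to 1825. TUBB fell by 0.53 ± 0.09 (SE, edgeR, adjusted p = 6.0e-04) on the log2 scale, and by 0.61 without that library. TUBB2B (chr6:3224261-3231730, minus strand), which migrating cortical neurons need, had the smallest change of the 10, -0.38 ± 0.08 (SE, edgeR, adjusted p = 0.0027), and -0.44 without vehicle replicate 2. Its level was 1139 to 1199 TPM in treated libraries, 1170 TPM in vehicle replicate 2 and 1727 to 1797 TPM in the other vehicle libraries. Its near copy TUBB2A (chr6:3153669-3157526, minus strand) stood at 257 to 292 TPM in treated and 303 to 474 TPM in vehicle libraries, with a log2 fold change of -0.52 ± 0.10 (SE, edgeR, adjusted p = 0.0011), and -0.58 without vehicle replicate 2.

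The remaining beta genes, TUBB4B, TUBB4A and TUBB6, had the lowest beta levels and log2 fold changes of -0.85 to -1.09, against -0.38 to -0.53 for the other beta genes. TUBB4B (chr9:137241213-137243707, plus strand), a beta gene also used in cilia, stood at 130, 123, 128 and 114 TPM in treated replicates 2 to 5 and at 179, 237, 265 and 264 TPM in vehicle replicates 2 to 5. The groups did not overlap, and the log2 fold change was -0.85 ± 0.09 (SE, edgeR, adjusted p = 3.3e-05), and -0.90 without vehicle replicate 2. TUBB4A (chr19:6494319-6502848, minus strand), a brain isotype abundant in myelinating cells and neurons, stood at 19.1, 20.2, 19.96 and 18.8 TPM in treated and at 42.5, 41.7, 39.6 and 43.0 TPM in vehicle replicates 2 to 5. The groups did not overlap. On CPM vehicle replicate 2 was the highest library, at 53.8 against 38.7 to 39.8 in the other vehicle libraries and 17.2 to 22.1 in treated libraries. The log2 fold change was -1.06 ± 0.12 (SE, edgeR, adjusted p = 4.8e-05), and -0.94 without that library.

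TUBB6 (chr18:12307669-12344320, plus strand), a beta gene expressed mainly outside neurons, was the lowest in level. Its fold change and that of TUBB4A were the largest of the 10, and their order depended on the scale and on the libraries used. It stood at 16.1, 17.5, 16.6 and 15.8 TPM in treated and at 25.5, 35.1, 38.8 and 37.0 TPM in vehicle replicates 2 to 5. The treated mean was 48.3% of the vehicle mean, with no overlap, against 46.8% for TUBB4A. The log2 fold change was -1.09 ± 0.09 (SE, edgeR, adjusted p = 4.9e-06), and -1.14 without vehicle replicate 2.

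Summed over the 10 genes, tubulin mRNA was at 9087 ± 164 TPM in treated and 13806 ± 2144 TPM in vehicle cells (SD, n = 4), which is 65.8% of the vehicle level, or 61.2% without vehicle replicate 2. The treated sums ran from 8944 to 9285 TPM. Vehicle replicate 2 had 10645 TPM and the other vehicle libraries 14370 to 15339 TPM, so the groups did not overlap. With mitochondrial genome genes left out of the TPM total, the treated mean was 63.0% of the vehicle mean (61.5% without vehicle replicate 2). On that scale vehicle replicate 2 came closer to its group, at 15251 against 16523 to 17105. The alpha sum was 62.7% and the beta sum 69.1% of the vehicle level. Without vehicle replicate 2 they were 59.7% and 62.6%.

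The ratio of alpha to beta mRNA was 0.948 ± 0.059 in treated and 1.07 ± 0.148 in vehicle cells (SD, n = 4), and the groups overlapped. Vehicle replicate 2 had the highest ratio, 1.29. The other vehicle libraries had 0.982 to 0.999, and the treated libraries 0.905 to 1.03. Relative to the other vehicle libraries, log2 CPM in vehicle replicate 2 was higher for the 3 alpha genes, by 0.10 for TUBA1A, 0.17 for TUBA1B and 0.93 for TUBA1C. Among the beta genes it was higher by 0.45 for TUBB4A and lower for the other 6, by values of -0.19 to -0.45.

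Shares of the summed TPM show which isotypes changed more or less than tubulin as a whole. Of 10 shares, 4 differed between the groups by exact permutation of the library labels (two-sided), each at 0.0286, the smallest p that 4 against 4 allows. The p-values are unadjusted, and the shares are not independent since they add up to 100%. The TUBB2B share rose, from 11.6% of tubulin TPM in vehicle to 12.9% in treated cells. Its mRNA fell less than the sum: the treated mean was 72.7% of the vehicle mean, against 65.8% for the sum. The TUBB2B share was 12.7 to 13.1% in treated and 10.995 to 12.01% in vehicle libraries, with no overlap. The TUBB4B share fell from 1.71% to 1.36%, that of TUBB4A from 0.309% to 0.215% and that of TUBB6 from 0.247% to 0.182%. All 4 kept an exact permutation p of 0.0286 without vehicle replicate 2. The differences, treated minus vehicle, were then 1.06 points for TUBB2B, -0.36 for TUBB4B, -0.064 for TUBB4A and -0.067 for TUBB6.

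Some of these calls depend on the denominator or on how many libraries the test has. As a share of beta tubulin alone, TUBB2B was 1.13 points higher in treated cells (exact permutation p = 0.114), while TUBB4A, TUBB4B and TUBB6 kept p = 0.0286. The share of TUBB4A did not pass when treated replicate 2, 3, 4 or 5 was left out (exact permutation p = 0.0571 each time). Its groups stayed apart all the same, at 0.206 to 0.226% in treated and 0.267 to 0.399% in vehicle libraries.

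The shares of the other 6 genes did not pass the test with all libraries. TUBA1A made up 41.2% of tubulin TPM in treated and 43.7% in vehicle cells (exact permutation p = 0.114), or a difference of -1.40 points without vehicle replicate 2 (p = 0.2). TUBB3 made up 19.6% and 17.8% (exact permutation p = 0.114), a difference of 1.84 points, or 1.05 points without vehicle replicate 2 (p = 0.2). Without treated replicate 5 both passed at an exact permutation p of 0.0286, with differences of -3.39 points for TUBA1A and 2.34 points for TUBB3. TUBB made up 14.1% and 13.9%, and its difference was 0.17 points with all libraries (exact permutation p = 1.0) and -0.42 points without vehicle replicate 2 (p = 0.0286). TUBA1C made up 0.438% and 0.594% (exact permutation p = 0.114), a difference of -0.16 points that became -0.038 points without vehicle replicate 2 (p = 0.2) and -0.21 points without vehicle replicate 3 (p = 0.0286). TUBA1B stood at 7.03% and 7.09% (exact permutation p = 0.8) and TUBB2A at 3.05% and 3.02% (p = 0.714). Without vehicle replicate 2 their differences were 0.25 and -0.023 points (exact permutation p = 0.371 and 0.8286).

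**Figure D3:**
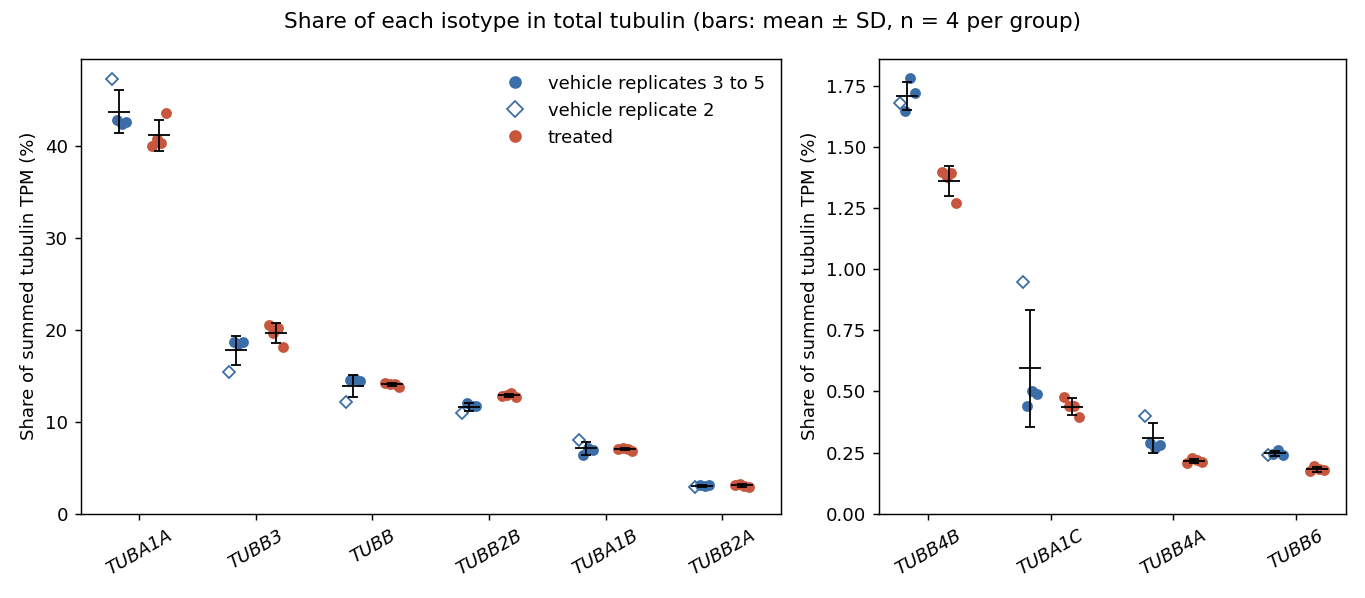
Share of each isotype in the summed tubulin TPM, in percent, by library, with the mean ± SD (n = 4) of each group; the open diamond is vehicle replicate 2. The TUBB2B share is higher in every treated library, and the shares of TUBB4A, TUBB4B and TUBB6 are lower in every treated library than in any vehicle library.

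Within single genes, the division of reads among transcripts differed most in TUBB6. Its main transcript TUBB6-201, which codes for the full protein, held 64.4, 56.0, 58.7 and 60.004% of the gene's TPM in treated replicates 2 to 5 and 75.2, 75.8, 76.9 and 77.3% in vehicle replicates 2 to 5. The groups did not overlap, and the difference was -16.5 points (exact two-sided permutation p = 0.0286), or -16.9 points without vehicle replicate 2 (p = 0.0286). In level, TUBB6-201 was at 9.84 ± 0.36 TPM in treated and 26.1 ± 4.79 TPM in vehicle cells (SD, n = 4), 37.8% of the vehicle level. All other TUBB6 transcripts together were at 6.64 ± 0.83 and 8.04 ± 1.17 TPM, 82.6% of the vehicle level. How reads were divided among transcripts carries its own error, which this test leaves out.

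TUBA1C was the only one of the 10 genes whose main transcript is annotated as a retained intron. That transcript, TUBA1C-203 (chr12:49269786-49273166), does not overlap TUBA1A in genomic position, and its sequence was not compared with those of the other alpha genes. It held 43.9 to 50.3% of the gene's TPM in treated libraries and 44.9 to 47.7% in vehicle replicates 3 to 5, but 77.6% in vehicle replicate 2. Its level was 78.4 TPM in that library, against 30.03 to 34.9 TPM in the other vehicle libraries and 16.7 to 21.8 TPM in treated libraries. The coding transcript TUBA1C-202 had 8.12 to 11.1 TPM in treated and 12.9 to 20.04 TPM in vehicle libraries. TUBA1C-204, also coding, had 9.83 to 11.3 TPM in treated libraries, 8.22 TPM in vehicle replicate 2 and 16.8 to 21.02 TPM in the other vehicle libraries, so its groups overlapped.

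In the other 8 genes the main transcript held 90.8 to 99.2% of the gene's TPM by group mean, in either group. In single libraries it held from 85.8% (TUBB4A, treated replicate 5) to 99.5% (TUBA1B, vehicle replicate 2). It had a lower share in treated cells, by an exact permutation p of 0.0286, in TUBA1B (98.8 against 99.2%), TUBB2A (92.8 against 95.7%), TUBB2B (97.9 against 98.6%) and TUBB4B (94.1 against 97.7%). Without vehicle replicate 2 the exact p was 0.0286 for TUBA1B, 0.0571 for TUBB2A and TUBB2B, and 0.0857 for TUBB4B. TUBB passed only without vehicle replicate 3 (98.0 against 98.3% with all libraries, exact permutation p = 0.0571). TUBA1B lost its call without treated replicate 2 (exact permutation p = 0.0571). TUBB2A and TUBB4B also lost theirs when any other vehicle library was left out, with exact permutation p of 0.0571 to 0.0857. In TUBA1B, TUBB2A, TUBB2B and TUBB4B every treated library lay below every vehicle library, so no call was lost through an overlap.

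**Figure D4:**
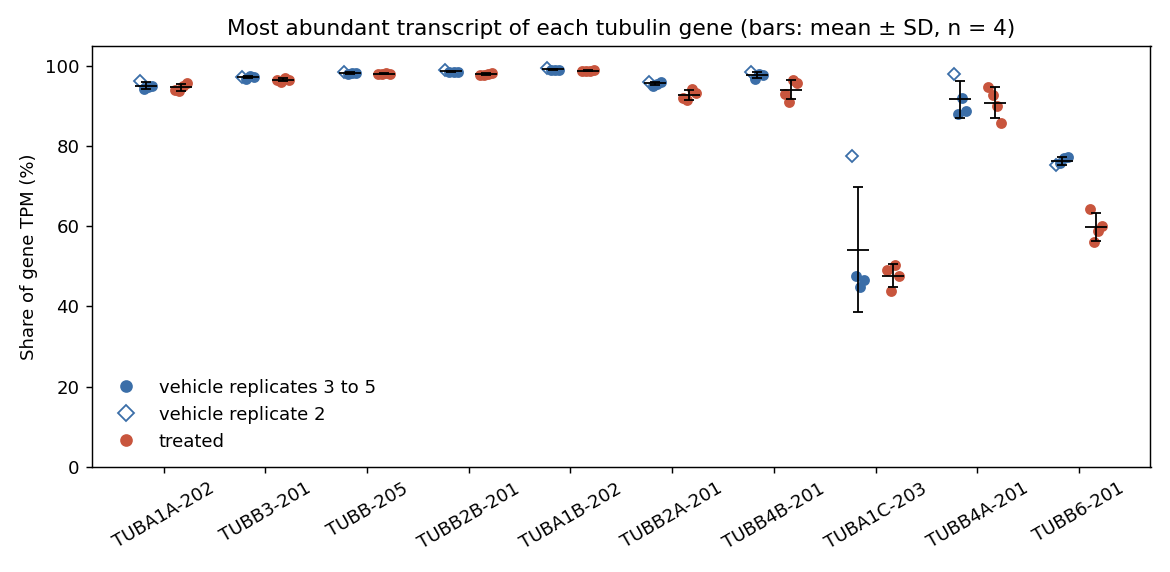
Share of each gene's main transcript in the gene's TPM, in percent, by library, with the mean ± SD (n = 4) of each group; the open diamond is vehicle replicate 2. TUBB6-201 drops from 76.3% in vehicle to 59.8% in treated cells, and TUBA1C-203 in vehicle replicate 2 stands at 77.6%, far above all other libraries.

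Among 11106 other genes with a symbol and a mean of at least 5 CPM, those whose log2 CPM followed TUBA1A most closely over the 8 libraries were CAP1 (Pearson r = 0.9996), NUDT11, HMGB3, TSPYL1 and TRIM69, all with r of at least 0.998. Such values mostly restate the difference between the groups. On deviations from the group means, CAP1, which encodes an actin-binding protein, again came first (r = 0.986), followed by SPATS2, RHOA, PCDH10 and RBMX. These r describe 8 libraries, of which vehicle replicate 2 lies far from the rest. Among the tubulin genes, the closest deviations were those of TUBB2B with TUBB3 (r = 0.996) and of TUBB4B with TUBB6 (r = 0.985).

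Beyond the 10 genes, the human genome holds further alpha and beta tubulin genes. Of 8 such genes listed, 6 did not pass the filter on low counts. TUBA4A, an alpha gene of muscle, platelets and neurons, had a log2 fold change of -0.19 (edgeR adjusted p = 0.24). TUBA8 rose by 2.12 on the log2 scale (edgeR adjusted p = 0.011), or 3.33 without vehicle replicate 2, from a low level. It had 1.48 to 2.24 TPM in treated libraries, 1.12 TPM in vehicle replicate 2 and 0.068 to 0.227 TPM in the other vehicle libraries.

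The factors of tubulin mRNA control were tested as a list of 3. TTC5, which recognises the nascent tubulin chain, fell by 0.98 ± 0.08 (SE, edgeR, adjusted p = 5.8e-06) on the log2 scale, from 38.3 to 19.4 CPM. CNOT11, the subunit that links it to the CCR4-NOT deadenylase, fell by 0.16 (edgeR adjusted p = 0.04995). SCAPER had a log2 fold change of 0.16 (edgeR adjusted p = 0.14), and passed the test without vehicle replicate 2 (0.22, adjusted p = 0.012). The summed TPM of the 3 was 81.8 to 89.1 in treated and 109.6 to 119.7 in vehicle libraries.

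Among genes that fold tubulin and assemble the dimer, prefoldin and the cofactors had calls in both directions, and CCT had only rising ones. The counts in this and the following lists stand against 27.7% of all genes called higher and 30.2% called lower, and several lie near those shares. Of the 8 subunits of the CCT chaperonin, which folds new tubulin chains, 2 rose (CCT5 by 0.25 and CCT4 by 0.24, log2) and none fell, for a median of 0.03. Of 6 prefoldin subunits, which hand chains to CCT, PFDN5 and PFDN2 rose and PFDN1 and PFDN6 fell. Of 7 tubulin cofactors, which join alpha to beta, TBCE (0.56), TBCEL (0.36) and TBCD (0.30) rose, and TBCC (-0.52) and ARL2 (-0.24) fell. Without vehicle replicate 2 the counts that rose and fell were 2 and 1 for CCT, 3 and 2 for prefoldin, and 4 and 2 for the cofactors. In that fit 6170 of all 20184 genes tested were called higher and 6532 lower.

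Among 11 genes of the gamma, delta and epsilon tubulins and the gamma ring, which nucleates microtubules, 4 rose and 2 fell, with a median of 0.06. TUBE1, the epsilon tubulin of centrioles, rose by 1.67 ± 0.09 (SE, edgeR, adjusted p = 3.1e-07) on the log2 scale, from 19.9 to 63.2 CPM. NEDD1 (0.70) and TUBGCP3 (0.64) also rose. TUBG1, the gamma tubulin, fell by 0.65, and TUBGCP5 fell by 0.70. Of 19 genes for enzymes that modify tubulin tails or lysines, or for their partner subunits, 3 rose and 9 fell, with a median of -0.18. The rising ones were the glutamylases TTLL11 (0.65) and TTLL7 (0.67) and the deacetylase SIRT2 (0.23), which did not pass without vehicle replicate 2 (edgeR adjusted p = 0.080), and the falling ones included VASH1 (-0.60), a tyrosine carboxypeptidase, TTLL1 (-0.48) and ATAT1 (-0.29), the acetyltransferase.

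**Figure D5:**
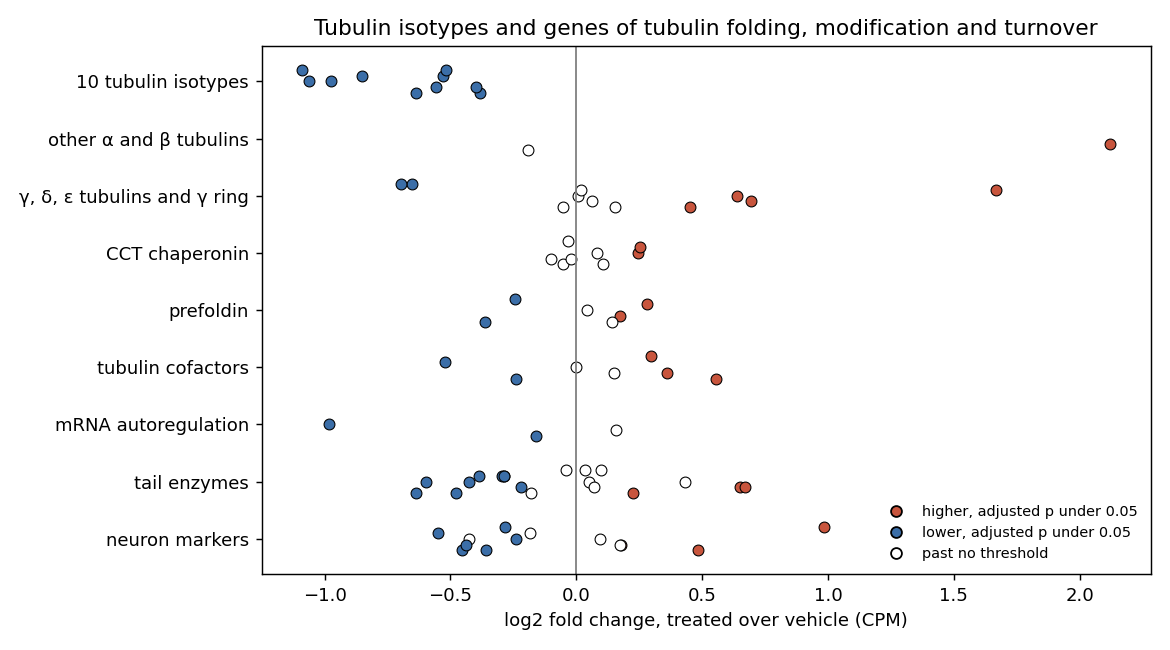
Log2 fold change, treated over vehicle, of each tested gene in the tubulin lists, as dots coloured by whether the gene was called higher, lower or neither. The 10 isotypes all lie below 0, while the lists of folding factors, gamma ring genes and tail enzymes hold genes on both sides.

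Cell type markers are given for comparison. Of 13 neuron markers, 3 rose (RBFOX3, SNAP25 and ELAVL3) and 6 fell, among them MAPT (-0.46), INA (-0.55) and NEFL (-0.24), and their summed TPM was 3862 to 4296 in treated and 4635 to 4911 in vehicle libraries. Of 10 cycling and progenitor markers, 2 rose (NES and SOX2) and 6 fell, among them MKI67 (-1.21), CCNB1 (-0.91) and PCNA (-0.63), with summed TPM of 359.9 to 382.9 in treated and 417.4 to 578.1 in vehicle libraries. Of 4 oligodendrocyte markers tested, OLIG1 and OLIG2 fell, and the summed TPM of the 5 listed was 25.6 to 33.0 in treated and 38.4 to 62.4 in vehicle libraries. The astrocyte list rose through SLC1A3 alone (3.26), a glutamate transporter gene, with summed TPM of 14.3 to 15.9 in treated and 2.10 to 2.51 in vehicle libraries. Of 7 dopaminergic markers tested, TH (1.04) and KCNJ6 (0.78) rose and EN1 (-0.80) and DDC (-1.05) fell, with summed TPM of the 10 listed at 352.0 to 393.7 in treated and 353.7 to 458.0 in vehicle libraries. Of 3 endothelial and fibroblast markers tested, PECAM1 (1.33) rose and CLDN5 (-1.58) fell, both from low levels, with summed TPM of 3.81 to 5.54 in treated and 5.46 to 13.9 in vehicle libraries. The part of these markers in the tubulin values was not tested.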

How the data were processed

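For each library the authors deposited gene and transcript tables that hold, per the file headers, TPM, effective lengths and estimated counts. HISAT2, SAMtools, StringTie and hg38 are named per the submitters' processing notes, while the sources used here name neither the quantifier nor its strand setting. The authors' deposited table of coding genes adds a log2 fold change and, as a p-value and false discovery rate, its test. Estimated counts were rounded, filtered with filterByExpr, scaled by TMM and tested without covariates in edgeR 4.0.16 (R 4.3.3), a step tested on simulated data (19785 genes, dispersion 0.01), where 71% of changes of 0.5 and 94.8% of changes of 1 (log2) were recovered. The SE is the size of the log2 fold change over the square root of F. Single shares were compared by exact two-sided permutation over the 8 libraries (70 assignments). Sequences came from GENCODE 29 transcripts, matched to the transcript tables without version numbers. All 10 tubulin genes are named, with the other alpha and beta tubulins, the mRNA control genes, up to 3 rising and 3 falling genes of smallest adjusted p from each other list, and the 5 genes most like TUBA1A by each of the 2 measures. The genes and lists were chosen with earlier results of these data known. Alternatives were other scalings, filters, denominators, DESeq2 1.42.0, and leaving out each library.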

Additional observations from a re-analysis of the deposited data

Results flagged for a closer look

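Of 64 groups of 4 libraries examined, 12 held a library far from the other 3, where chance flags about 1 in 20 groups. That rate is no yardstick here, since levels, shares and ratios of the same genes in the same libraries are not independent. Of the 12, 11 were vehicle replicate 2. In that library the beta tubulin levels were low: TUBB at 1288 TPM against 2081 to 2206 in the other vehicle libraries, TUBB2A at 303 against 446 to 474, TUBB2B at 1170 against 1727 to 1797, and TUBB3 at 1643 against 2678 to 2860. The shares of tubulin TPM moved with them. TUBB made up 12.1% against 14.4 to 14.6%, and TUBB3 15.4% against 18.4 to 18.6%. TUBA1A made up 47.3% against 42.3 to 42.8%, and TUBA1C 0.949% against 0.438 to 0.5003%. The ratio of alpha to beta was 1.29 against 0.982 to 0.999. The main transcript held 77.6% of TUBA1C against 44.9 to 47.7%, and 99.5% of TUBA1B against 99.04 to 99.09%.

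The other library was treated replicate 5, in which TUBB4B made up 1.27% of tubulin TPM against 1.38 to 1.40% in the other treated libraries.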

How the results depend on the processing

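The log2 fold changes of 9 tubulin genes stayed negative and past the threshold under all 17 alternatives run, while TUBB3 lost its call under 4 of them. With a replicate block on differentiation number, 9 of 10 genes were lower (TUBB3 at -0.40, edgeR adjusted p = 0.056), and all genes gave 5163 higher and 5601 lower calls against 5484 and 5977. Deviations of same-numbered libraries correlated at -0.080 to 0.032 and those of differently numbered ones at -0.144 to 0.146. With 4 libraries per group such values cannot decide whether batches are shared. The labels do not say that a number is shared by the groups, so the numbers were not treated as pairs. The block left 0 isotype shares past the threshold, since a sign-flip test over 4 pairs cannot go below 0.125. Small share differences changed sign: within its own class TUBA1B gave 0.69, TUBB -1.18 and TUBB2A -0.28 points. Leaving out 1 library gave -0.32 to 0.25 points for TUBA1B, -0.42 to 0.41 for TUBB and -0.023 to 0.095 for TUBB2A. Library totals in place of TMM gave 4280 higher and 7023 lower calls. Summing shares over identifiers of a symbol was not run, since each name has 1.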
